A study of Mus musculus with 8 samples.

Results

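Expression of 8 genes of nutrient uptake and growth was examined in NK cells of lung and spleen. They were *Slc1a5*, *Slc38a2*, *Slc7a5* and *Slc3a2* for amino acids, *Slc2a1* and *Slc2a3* for glucose, *Tfrc* for iron, and the transcription factor gene *Myc*. The genes were chosen by name, with earlier results of these data known. Their counts and medians set beside all genes are therefore not independent of the data. They are 8 of the 48321 gene symbols counted, and all 8 passed the filter on low counts, *Slc7a5* through its lung libraries.

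RNA was sequenced from freshly sorted NK cells (CD45+ TCRb- NK1.1+) of mice of the C57/Bl6 background, in 4 groups of 2 libraries each, named lung *Wt*, lung KO, spleen *Wt* and spleen KO. KO stands for *Ccl5ΔPE/ΔPE* mice, which were made with guide RNAs and lack the proximal enhancer of the chemokine gene *Ccl5* on both alleles in every cell, so that other cells of the organ also carry the deletion. The labels name no treatment and no age, and the study's methods give mixed sexes and a common range of ages for all of its lines. Whether replicate libraries stem from different animals is not given in the sources used here, so the p-values below measure only the spread between libraries, which may be technical.

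NK cells are innate lymphocytes that kill stressed or transformed cells, and their metabolism rises when cytokines activate them. SLC1A5 and SLC38A2 carry glutamine and other neutral amino acids into the cell, while SLC7A5 forms a heterodimer with the heavy chain SLC3A2 (CD98) that takes up leucine and other large neutral amino acids. SLC2A1 (GLUT1) and SLC2A3 (GLUT3) carry glucose, the transferrin receptor TFRC carries iron, and MYC drives genes of growth in activated lymphocytes, including those of several transporters.

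The 8 genes lie on 7 chromosomes of GRCm38 (GENCODE M21), and reads were counted over annotated genes. *Slc1a5* lies at chr7:16781340-16798274, *Slc38a2* at chr15:96687392-96699730, *Slc7a5* at chr8:121881150-121907694 and *Slc3a2* at chr19:8706882-8723369. *Slc2a1* lies at chr4:119108711-119137983, *Slc2a3* at chr6:122727809-122801640, *Tfrc* at chr16:32608920-32632794 and *Myc* at chr15:61985391-61990374. Promoter windows from RefSeq (GRCm38.p6) were at hand for 4 of the 8 genes. Those of *Slc38a2*, *Slc2a1* and *Tfrc* are printed, and these 3 genes stand for 3 of the outcomes described below: higher in KO in both organs, opposite in the organs, and not called in either. That of *Slc3a2* is left out because annotated exon bases lie near its 5′ end. Each printed window is given from 5′ to 3′ in the direction of the gene, without annotated exon bases, and capitals mark a GC box (GGGCGG) or a CCAAT box read on either strand.
Slc38a2 promoter, chr15:96699731-96699978, minus strand: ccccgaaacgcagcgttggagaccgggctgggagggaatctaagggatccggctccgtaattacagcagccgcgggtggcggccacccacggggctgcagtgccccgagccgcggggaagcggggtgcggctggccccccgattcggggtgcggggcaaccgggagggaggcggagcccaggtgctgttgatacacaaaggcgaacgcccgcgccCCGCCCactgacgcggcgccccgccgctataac
Slc2a1 promoter, chr4:119108495-119108710, plus strand: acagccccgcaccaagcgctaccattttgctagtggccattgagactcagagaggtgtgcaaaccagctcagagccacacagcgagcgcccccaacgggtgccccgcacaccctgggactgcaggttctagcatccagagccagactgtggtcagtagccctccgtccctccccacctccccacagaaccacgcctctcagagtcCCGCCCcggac
Tfrc promoter, chr16:32608646-32608895, plus strand: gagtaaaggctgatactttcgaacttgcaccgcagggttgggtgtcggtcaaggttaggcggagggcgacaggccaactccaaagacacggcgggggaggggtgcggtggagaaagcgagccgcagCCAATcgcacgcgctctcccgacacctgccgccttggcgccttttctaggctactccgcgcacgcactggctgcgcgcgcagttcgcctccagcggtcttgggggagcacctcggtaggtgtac
A GC box was found in the 250 bases upstream of *Slc3a2*, *Slc38a2* and *Slc2a1*, and in 33.0% of the windows of 27025 genes. Annotated exon bases were not cut out for these searches, and the window of *Slc3a2* contains some. The CCAAT box was found for *Tfrc*, and in 34.5% of all windows. The E-box CACGTG, to which MYC and MAX bind, was in none of the 4 windows and in 6.04% of all windows. The letters TGATGCAA, the core of the amino acid response element, were also in none of the 4 and in 0.825% of all. These matches are descriptions of letters in a short window, and binding was not analysed here.

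Between 3132963 and 26482366 reads were counted on genes per library, and the deepest and the shallowest library both belonged to spleen KO. Levels are given as CPM (read counts brought to a common library total after TMM scaling), on which 3 reads equal 0.115 to 0.979 CPM. *Ccl5*, the gene whose enhancer was deleted, was at 18934 ± 826 CPM (mean ± SD, n = 2) in lung *Wt* and 3094 ± 143 CPM in lung KO, and at 16172 ± 718 and 2554 ± 172 CPM in spleen. All 9 NK cell markers were detected in every group, with a summed level of 26702 to 27100 CPM in lung *Wt* and 22944 to 23253 CPM in lung KO. In spleen this sum was 22092 to 22263 CPM in *Wt* and 27092 to 27667 CPM in KO, so it was lower in KO in lung and higher in KO in spleen. *Nkg7*, *Klrb1c*, *Klrk1*, *Ncr1* and *Klrd1* moved in this way. *Tbx21* (219 to 479 CPM), *Il2rb* (336 to 773 CPM) and *Prf1* (1509 to 2515 CPM) were instead higher in lung KO than in lung *Wt*. In spleen they were lower in KO (336 to 149, 676 to 443 and 1311.5 to 938 CPM). *Eomes* was slightly higher in KO in both organs. Replicate libraries differed little, with a variance between 1.20 and 1.42 times that of counting alone. Markers of lung epithelium and endothelium summed to 317 to 323 CPM in lung *Wt*, 441 to 481 CPM in lung KO and 65.2 to 75.4 CPM in spleen, where 4 of the 6 (*Sftpc*, *Sftpa1*, *Scgb1a1* and *Cdh5*) were at 0. The 6 erythroid markers summed to 24.7 to 27.7 CPM in lung *Wt*, 49.5 to 53.6 CPM in lung KO and at most 1.05 CPM in spleen, and *Alas2* was at 0 in lung *Wt*. The 7 T cell markers summed to 38.9 to 47.1 CPM in lung and 130.9 to 157.2 CPM in spleen, and the 4 B cell markers to 5.18 to 8.16 and 38.2 to 44.3 CPM. The 6 myeloid markers lay between 20.2 and 41.6 CPM, with *S100a8* and *S100a9* at 0 in every group, and the 4 markers of other innate lymphoid cells between 454 and 559 CPM. Within the epithelial and endothelial list, *Sftpc*, *Sftpa1* and *Pecam1* were higher in lung KO than in lung *Wt*, while *Scgb1a1* (85.3 to 62.2 CPM) and *Cdh5* (6.23 CPM in lung KO) were lower. The summed epithelial and erythroid levels were thus higher in lung KO than in lung *Wt*, and the T cell and B cell levels were higher in spleen than in lung. The NK cell sum moved opposite to most of the 8 genes in both organs, whereas *Tbx21*, *Il2rb* and *Prf1* moved with most of them. The part of all these levels in the results was not tested.

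The comparison of KO with *Wt* in each organ asks how loss of the enhancer was accompanied by changes in these genes. In lung, 7 of the 8 genes were higher in KO, led by *Slc7a5* and *Slc1a5*, and none was lower. In spleen, *Slc1a5*, *Slc2a3*, *Slc2a1* and *Slc3a2* were lower in KO and *Slc38a2* was higher. *Slc7a5* was also called lower there, but on 2 to 26 reads per library, and it did not pass the filter in a fit of the spleen libraries alone. *Slc1a5*, *Slc7a5*, *Slc3a2*, *Slc2a1* and *Slc2a3* thus moved up in lung and down in spleen, *Slc38a2* moved up in both, *Myc* passed the test in lung alone, and *Tfrc* passed in neither. A gene was called at an adjusted p of at most 0.05 in edgeR's quasi-likelihood test, fitted to 12595 genes with Benjamini-Hochberg adjustment over all of them. In bulk RNA, fewer cells that express a gene and less of its RNA per cell cannot be told apart.

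The count of 7 of 8 called in lung stands beside 55.6% of all genes tested, 29.2% called higher and 26.4% called lower. The median log2 fold change was 0.67 over the 8 genes and 0.02 over all genes tested. In spleen, 6 of 8 were called beside 57.1% of all genes, with 1 higher (28.2% of all) and 5 lower (28.9% of all), and the medians were -0.49 and 0.00. A call was thus common in this fit, also among genes of other functions. Scaling by library totals in place of TMM moved the share of higher genes among all called from 52.5% to 63.3% in lung and from 49.3% to 41.2% in spleen, without turning the direction of any of the 8 genes. The biological coefficient of variation was also set to 0.2, far above the 2.50% estimated between these libraries. Then 2 of 8 genes were called in lung (*Slc7a5* and *Slc1a5*), beside 1557 of all 12595 genes. Of these 1557 genes, 1029 were higher in KO and 528 lower. In spleen 3 of 8 were called (*Slc7a5*, *Slc1a5* and *Slc2a3*), beside 1144 of all 12595 genes. Of these 1144 genes, 360 were higher in KO and 784 lower. All genes called at this setting thus leaned the way most of the 8 genes moved in each organ.

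**Figure D1:**
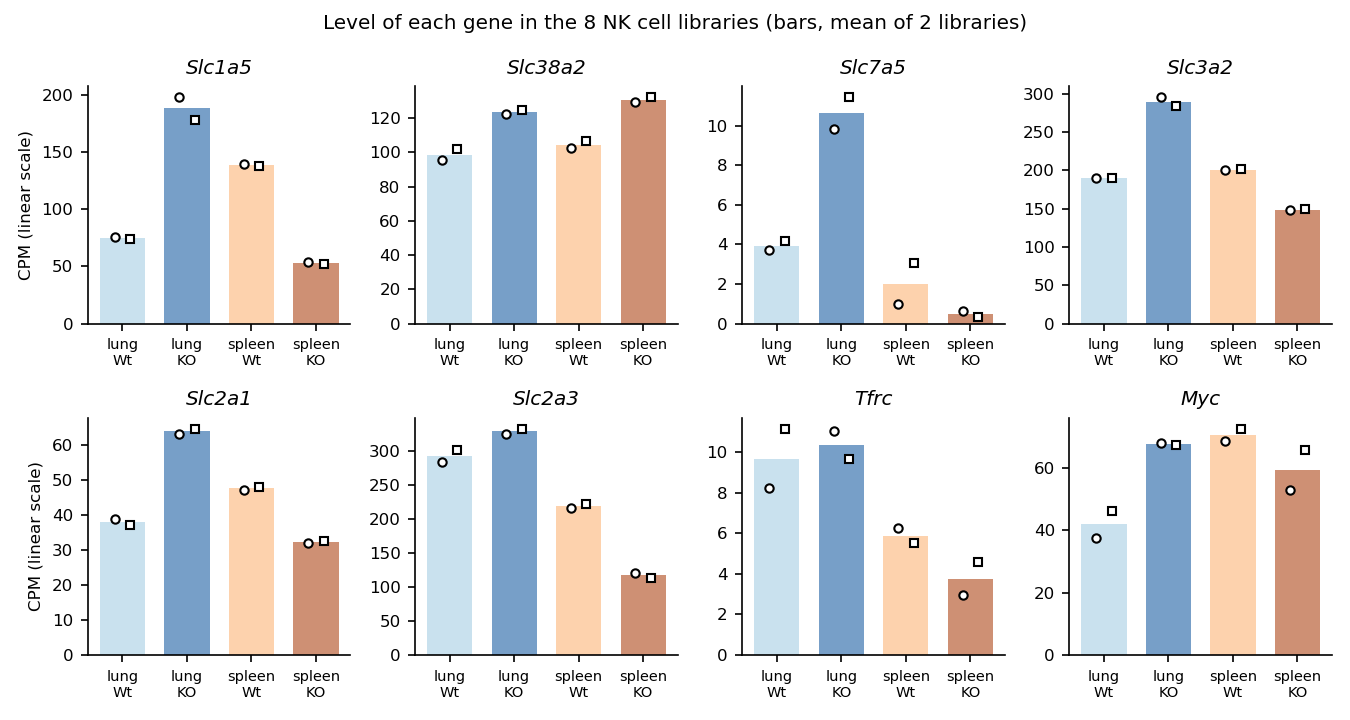
CPM (linear axis) of each of the 8 genes in the 4 groups, with bars for the mean of 2 libraries, circles for replicate 1 and squares for replicate 2. *Slc1a5* ran from 52.4 to 53.5 CPM in spleen KO up to 178.6 to 198.1 CPM in lung KO, whereas *Slc38a2* was higher in KO in both organs, and the replicates of *Tfrc* overlapped between lung *Wt* and lung KO.

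*Slc1a5*, the main glutamine transporter of activated lymphocytes, showed the smallest p of the 8 genes in lung and in spleen. Its level in lung was 76.2 and 74.1 CPM in the *Wt* libraries and 198.1 and 178.6 CPM in the KO libraries. In spleen it was 139.4 and 138.2 CPM in *Wt* and 53.5 and 52.4 CPM in KO. No 2 groups overlapped, and the genotypes stood in opposite order in the organs. In lung KO it was 2.48-fold higher than in *Wt* (log2 1.31, SE 0.06, adjusted p = 2.64e-19), rank 19 of all genes by p. In spleen KO it was 2.64-fold lower (log2 -1.40, SE 0.06, adjusted p = 4.13e-20), rank 9 of all genes.

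*Slc38a2*, which encodes a sodium-coupled transporter of small neutral amino acids that cells raise upon amino acid shortage, moved the same way in both organs. In lung it was at 95.5 and 101.8 CPM in *Wt* and 122.4 and 124.8 CPM in KO. Spleen held 102.4 and 106.6 CPM in *Wt* and 129.3 and 132.3 CPM in KO. Both KO groups lay above both *Wt* groups. The log2 fold change was 0.34 (SE 0.06, adjusted p = 1.68e-05) in lung and 0.33 (SE 0.06, adjusted p = 6.63e-06) in spleen. No other of the 8 genes was called in the same direction in both organs.

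The balance between these 2 glutamine transporters was followed as the ratio of reads per kilobase of exon within each library, a measure chosen after the values were seen and not tested. The ratio of *Slc1a5* to *Slc38a2* was 1.69 and 1.54 in lung *Wt* and 3.43 and 3.03 in lung KO. In spleen it was 2.88 and 2.75 (*Wt*) and 0.877 and 0.838 (KO). Spleen KO was thus the only group in which *Slc38a2* gave more reads per kilobase than *Slc1a5*.

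**Figure D2:**
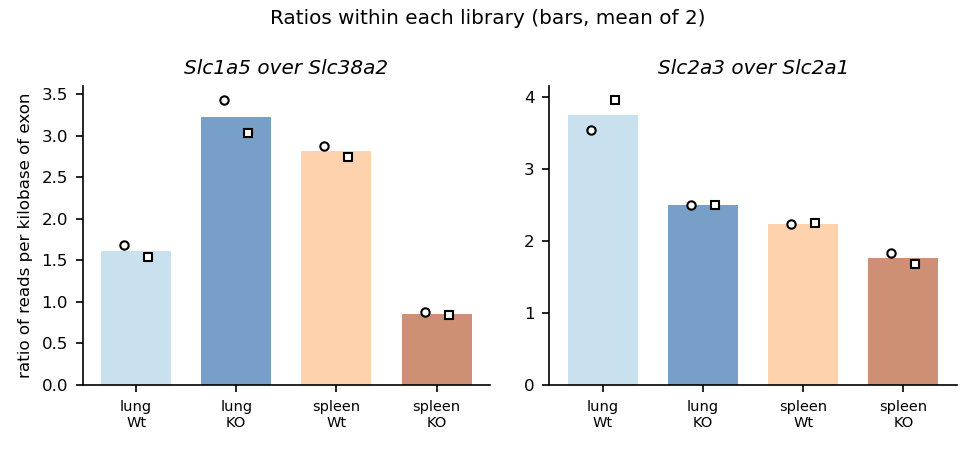
Ratio of reads per kilobase of exon within each library (linear axes), *Slc1a5* over *Slc38a2* on the left and *Slc2a3* over *Slc2a1* on the right, with bars for the mean of 2 libraries, circles for replicate 1 and squares for replicate 2. The left ratio lay below 1 in spleen KO (0.877 and 0.838), and the right ratio was highest in lung *Wt* (3.54 and 3.95).

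*Slc7a5*, the light chain that carries leucine, had the lowest level per kilobase of exon of the 8 genes in 3 of the 4 groups. In lung it was at 3.73 and 4.14 CPM in *Wt* (30 and 16 reads) and 9.82 and 11.4 CPM in KO (48 and 84 reads). In spleen it was at 0.999 and 3.04 CPM in *Wt* (4 and 26 reads) and 0.653 and 0.345 CPM in KO (2 and 9 reads). The lung groups were apart from each other and above all spleen libraries, the 2 spleen *Wt* libraries differed from each other 3-fold in CPM, and the 2 reads of the first spleen KO library lay under the level of 3 reads. The fitted log2 fold change was 1.47 (SE 0.25, adjusted p = 6.27e-06) in lung and -2.60 (SE 0.48, adjusted p = 1.81e-05) in spleen. The spleen call rested on few reads: it was lost without the second *Wt* library (log2 -1.37, adjusted p = 0.223) and without the second KO library (log2 -1.83, adjusted p = 0.0926).

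*Slc3a2*, the heavy chain that brings several light chains to the cell surface, moved with smaller folds and far more reads. Its level in lung was 190.3 and 190.1 CPM (*Wt*) and 295.2 and 283.7 CPM (KO). Spleen libraries held 200.6 and 201.2 CPM (*Wt*) and 148.2 and 149.0 CPM (KO). Lung KO stood highest, spleen KO lowest, and the 2 *Wt* groups lay close together between them without overlap. The log2 fold change in KO was 0.60 (SE 0.05, adjusted p = 3.39e-13) in lung and -0.43 (SE 0.05, adjusted p = 1.55e-09) in spleen.

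Of 5 light chains that can pair with *Slc3a2*, *Slc7a6* had the highest level in each group. In RPKM (CPM per kilobase of exon), which allows genes to be compared, *Slc7a6* was at 6.47 ± 0.97 (*Wt*) and 4.81 ± 0.23 (KO) in lung, and at 3.43 ± 0.21 (*Wt*) and 3.72 ± 0.19 (KO) in spleen (n = 2 each). *Slc7a5* was at 1.06 ± 0.08, 2.87 ± 0.31, 0.544 ± 0.389 and 0.135 ± 0.059 RPKM in the same order. *Slc7a7*, a transporter of cationic and neutral amino acids, was at 0.383 ± 0.011, 1.52 ± 0.47, 0.720 ± 0.378 and 1.64 ± 0.37 RPKM. *Slc7a8* was at 0.088 ± 0.067 RPKM in lung KO and at 0 in the other groups, and *Slc7a11* was at 0 in all 8 libraries. In lung KO, *Slc7a5* and *Slc7a7* were thus called higher while *Slc7a6* was called lower (log2 -0.48, adjusted p = 0.000832), and in spleen KO *Slc7a7* was called higher (log2 1.17, adjusted p = 0.000405) while *Slc7a5* was called lower.

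*Slc2a1*, the glucose transporter that lymphocytes raise on activation, was at 38.9 and 37.0 CPM in lung *Wt* and 63.0 and 64.5 CPM in lung KO. Spleen libraries gave 47.0 and 48.0 CPM in *Wt* and 32.0 and 32.6 CPM in KO. The 4 groups did not overlap, and their order, lung KO above spleen *Wt*, lung *Wt* and spleen KO, was that of *Slc1a5*. The log2 fold change was 0.74 (SE 0.09, adjusted p = 3.39e-09) in lung and -0.55 (SE 0.08, adjusted p = 4.58e-07) in spleen. Its exons share 105 bases with the antisense gene *Gm12868*, whose reads were 4.08 to 7.69% of those of *Slc2a1*, and the strand setting of the counting is not given in the sources used here.

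*Slc2a3*, a glucose transporter of high affinity, was at 284.8 and 302.6 CPM (*Wt*) and 325.7 and 333.2 CPM (KO) in lung. Spleen libraries held 216.6 and 222.9 CPM (*Wt*) and 121.4 and 113.6 CPM (KO). All lung libraries lay above all spleen libraries, and the largest step was that between the spleen genotypes. The log2 fold change was 0.18 (SE 0.05, adjusted p = 0.00146) in lung, which without the first lung *Wt* library was 0.12 (adjusted p = 0.12). In spleen it was -0.94 (SE 0.05, adjusted p = 1.45e-17), rank 24 of all genes by p. The pseudogene *Gm4482* lies within *Slc2a3* and took 1.13 to 3.95% as many reads, without a shared exon.

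The ratio of *Slc2a3* to *Slc2a1*, in reads per kilobase within a library, was 3.54 and 3.95 in lung *Wt* and 2.50 and 2.50 in lung KO. Spleen gave 2.23 and 2.25 (*Wt*) and 1.84 and 1.68 (KO). The ratio was lower in KO than in *Wt* in both organs, although both genes moved up in lung and down in spleen. This measure, too, was chosen after the values were seen and was not tested.

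*Tfrc*, the receptor that takes up iron bound to transferrin and is raised in dividing cells, was low and did not pass the test for genotype in either organ. It was at 8.21 and 11.1 CPM in lung *Wt* and 11.1 and 9.66 CPM in lung KO, and the genotypes overlapped. The spleen values were 6.24 and 5.49 CPM in *Wt* and 2.94 and 4.56 CPM in KO, without overlap. The log2 fold change was 0.15 (95% interval -0.25 to 0.56, adjusted p = 0.541) in lung and -0.40 (95% interval -0.86 to 0.06, adjusted p = 0.132) in spleen. The spleen value was called with an offset for GC content (-0.62, adjusted p = 0.0209).

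*Myc* was at 37.5 and 46.1 CPM in lung *Wt* and 67.8 and 67.3 CPM in lung KO. In spleen it was at 68.4 and 72.4 CPM in *Wt* and 52.9 and 65.5 CPM in KO. Lung *Wt* lay under all other libraries, and the 2 spleen KO libraries lay farther apart than those of spleen *Wt*. In lung KO it was 1.67-fold higher (log2 0.74, SE 0.10, adjusted p = 3.09e-08). In spleen the log2 fold change was -0.17 (95% interval -0.32 to -0.01, unadjusted p = 0.0356, adjusted p = 0.0606), and 5 of 17 settings put it on the other side. The largest change among them came without the second spleen KO library (log2 -0.43, adjusted p = 0.0066).

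The difference between the 2 KO effects was tested directly as the effect in lung minus that in spleen. Of the 8 genes, 6 were called beside 61.6% of all genes tested. All 6 were more positive in lung (32.5% of all genes) and none was more negative (29.0% of all), and the median difference was 1.07 log2 units against 0.03 over all genes. It was 2.71 (SE 0.09, adjusted p = 8.34e-25) for *Slc1a5*, rank 7 of all genes by p. The difference was 1.29 for *Slc2a1*, 1.11 for *Slc2a3*, 1.04 for *Slc3a2* and 0.90 for *Myc*, each with an adjusted p of at most 5.08e-08. The fitted value for *Slc7a5* was 4.07 (SE 0.55, adjusted p = 4.35e-08), which draws on the 2 to 26 reads of its spleen libraries and was 2.84 without the second spleen *Wt* library. For *Slc38a2* it was 0.01 (95% interval -0.16 to 0.19, adjusted p = 0.905), and for *Tfrc* 0.55 (95% interval -0.06 to 1.16, adjusted p = 0.112). With library totals the share of positive differences among all genes called rose from 52.9% to 63.5% and the median of all genes to 0.19, and the difference for *Tfrc* was then called (0.71, adjusted p = 0.0404). An offset for GC content gave 1.02 (adjusted p = 0.00399) for *Tfrc* and 0.25 (adjusted p = 0.00916) for *Slc38a2*, so whether these 2 were called depended on the setting. The same offset made the difference smaller for *Slc1a5* (2.25), *Slc2a1* (0.99), *Slc3a2* (0.78), *Myc* (0.65) and *Slc7a5* (3.64). It was larger for *Slc2a3* (1.24), and these 6 genes stayed called.

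The comparison of lung with spleen within a genotype uses the same libraries and so shares its values with the comparisons above. In *Wt*, *Slc1a5*, *Myc* and *Slc2a1* were lower in lung, and *Slc2a3* and *Tfrc* were higher. In KO, 6 of the 8 genes were higher in lung than in spleen, among them *Slc7a5*, which passed the filter through its lung libraries. *Slc1a5* and *Slc2a3* were in front by p, and *Myc* and *Slc38a2* did not pass the test.

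In *Wt*, 5 of 8 genes were called beside 57.0% of all genes tested, 2 higher in lung (27.7% of all) and 3 lower (29.3% of all), and the medians were -0.09 over the 8 genes and -0.01 over all. The log2 difference, lung against spleen, was -0.88 (SE 0.07, adjusted p = 6.11e-14) for *Slc1a5* and -0.81 (SE 0.09, adjusted p = 2.53e-09) for *Myc*. It was -0.32 (adjusted p = 0.0031) for *Slc2a1*, 0.41 (adjusted p = 5.31e-09) for *Slc2a3* and 0.68 (adjusted p = 0.00991) for *Tfrc*. The values of *Slc7a5* (0.70, adjusted p = 0.087), *Slc3a2* (-0.08, adjusted p = 0.184) and *Slc38a2* (-0.10, adjusted p = 0.171) did not pass. The calls of *Slc2a1* and *Tfrc* were lost with DESeq2 (adjusted p = 0.0815 and 0.0993) and with the GC offset (adjusted p = 0.0901 and 0.0972). That of *Tfrc* was also lost without the second lung *Wt* library (0.52, adjusted p = 0.0826), and those of *Tfrc* and *Slc2a1* without the second spleen *Wt* library (adjusted p = 0.148 and 0.0548). *Slc7a5* was called without that spleen library (1.94, adjusted p = 0.00914) and with the GC offset (0.87, adjusted p = 0.0335). With library totals, 36.9% in place of 48.6% of all genes called were higher in lung, the median of all genes was -0.12, and *Slc3a2* (-0.18, adjusted p = 0.00208) and *Slc38a2* (-0.21, adjusted p = 0.00575) were called lower in lung.

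In KO, 6 of 8 genes were called beside 65.6% of all genes tested, all 6 higher in lung (33.9% of all) and none lower (31.7% of all), and the medians were 1.10 and 0.02. The log2 difference was 1.83 (SE 0.06, adjusted p = 1.56e-25) for *Slc1a5* and 1.52 (SE 0.05, adjusted p = 8.54e-26) for *Slc2a3*. For *Slc7a5*, with 2 and 9 reads in spleen KO, the fitted value was 4.78 (SE 0.33, adjusted p = 2.25e-15). This gene passed the filter through its lung libraries, so its call as higher in lung is not independent of that filter. The count of 6 and the median of 1.10 include it. The difference was 0.97 (SE 0.08, adjusted p = 9.75e-14) for *Slc2a1*, 0.96 (SE 0.05, adjusted p = 5.61e-20) for *Slc3a2* and 1.23 (SE 0.20, adjusted p = 1.21e-06) for *Tfrc*. *Tfrc*, not called for genotype, was thus called between organs in both genotypes. *Myc* differed by 0.09 (95% interval -0.06 to 0.25, adjusted p = 0.291) and *Slc38a2* by -0.09 (95% interval -0.20 to 0.02, adjusted p = 0.153). Without the second spleen KO library, *Myc* was called higher in lung (0.36, adjusted p = 0.0182).

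Compared per kilobase of exon, *Slc3a2* was the most expressed of the 8 genes in each group, and *Tfrc* and *Slc7a5* were the least. In lung *Wt* the order was *Slc3a2* (53.9 ± 0.04 RPKM, n = 2), *Slc2a3* (40.5 ± 1.73), *Slc1a5* (18.0 ± 0.36), *Myc* (15.4 ± 2.23), *Slc38a2* (11.2 ± 0.51), *Slc2a1* (10.8 ± 0.38), *Tfrc* (1.56 ± 0.34) and *Slc7a5* (1.06 ± 0.08). In lung KO, *Slc1a5* (45.1 ± 3.30 RPKM) reached *Slc2a3* (45.5 ± 0.74). In spleen *Wt*, *Slc1a5* (33.3 ± 0.20 RPKM) stood above *Slc2a3* (30.3 ± 0.62) and *Myc* (25.9 ± 1.04). In spleen KO, *Slc1a5* (12.7 ± 0.20 RPKM) stood in the fifth place, under *Myc* (21.8 ± 3.29), *Slc2a3* (16.2 ± 0.77) and *Slc38a2* (14.8 ± 0.24). Neighbours whose libraries overlapped were *Slc38a2* and *Slc2a1* in lung *Wt*, and *Slc1a5* and *Slc2a3* in lung KO. All other neighbours in these 4 orders were separated in both libraries, the closest being *Tfrc* (lower library 0.888 RPKM) and *Slc7a5* (upper library 0.819 RPKM) in spleen *Wt*.

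Other genes of the same functions were described by lists written out in full, with counts of the genes called and no test of a list. Beside these counts, 29.2% of all genes tested were called higher and 26.4% lower in lung KO. In spleen KO these shares were 28.2% and 28.9%. Some lists lie near them, such as iron handling in spleen KO (29.4% higher and 23.5% lower). Of 14 other amino acid transporters tested, 6 were called higher and 2 lower in lung KO, and 4 higher and 6 lower in spleen KO (medians 0.30 and -0.18). These counts and medians include *Slc43a3*, which carries purine bases and was called higher in both organs. *Slc6a6*, the taurine transporter, rose in lung KO from 37.3 ± 2.87 to 61.3 ± 4.26 CPM and fell in spleen KO from 62.9 ± 6.12 to 33.5 ± 4.87 CPM (log2 0.71 and -0.78). *Slc38a1*, a close relative of *Slc38a2*, rose in spleen KO from 148.4 ± 5.39 to 192.5 ± 9.85 CPM (log2 0.34, adjusted p = 6.76e-07) and was also called higher in lung KO (log2 0.26, adjusted p = 0.000225). *Slc43a3* and *Slc7a7* rose in lung KO (log2 0.89 and 1.93). *Slc38a10* fell in spleen KO (log2 -0.53, adjusted p = 1.41e-06).

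Of 11 genes tested in the list of other sugar and lactate transporters, 8 were called higher and none lower in lung KO, and 7 higher and 2 lower in spleen KO (medians 0.78 and 0.32). These counts and medians include *Bsg*, which is not itself a transporter and was called higher in spleen KO (log2 0.11, adjusted p = 0.0325). Several genes of the list were near 0. *Slc2a8*, an intracellular glucose transporter, was at 0.062 ± 0.088 CPM in lung *Wt* and 4.19 ± 0.42 CPM in lung KO, but at 5.70 ± 1.70 CPM in spleen *Wt* and 1.37 ± 0.55 CPM in spleen KO. *Slc2a10* was at 0 in both lung *Wt* libraries and at 2.25 ± 0.86 CPM in lung KO. *Slc16a3* was also at 0 in both lung *Wt* libraries, and the median of the list in lung stayed at 0.78 with both genes set to the level of 3 reads. *Slc16a7*, a monocarboxylate transporter, was called higher in both organs (1.08 ± 0.46 to 6.19 ± 0.45 CPM in spleen, log2 2.41). *Slc2a6* fell in spleen KO from 9.60 ± 0.15 to 2.65 ± 0.05 CPM (log2 -1.84, adjusted p = 7.94e-09). It was called higher in lung KO (log2 0.815, adjusted p = 0.0278). *Slc2a10* was also called higher in spleen KO (0.058 to 1.67 CPM).

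Of 17 genes of iron handling tested, 7 were called higher and 4 lower in lung KO, and 5 higher and 4 lower in spleen KO (medians 0.15 and -0.03). *Steap3*, a reductase of endosomal iron, rose in lung KO from 7.05 ± 0.29 to 16.4 ± 0.06 CPM (log2 1.23, adjusted p = 3.2e-07) and was called lower in spleen KO (log2 -0.92, adjusted p = 2.4e-05). *Slc25a37*, which imports iron into mitochondria, rose in lung KO (log2 1.53, adjusted p = 1.82e-05) and in spleen KO (log2 1.32, adjusted p = 2.09e-05). In spleen KO the ferritin light chain gene *Ftl1* rose (log2 0.32), and the iron chaperone gene *Pcbp1* fell (log2 -0.57). Both were called higher in lung KO (log2 0.15 and 0.23).

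Of 13 factors of the MYC network tested, 6 were called higher and 3 lower in lung KO, and 1 higher and 6 lower in spleen KO (medians 0.18 and -0.12). *Mxd1*, whose product competes with MYC for MAX, rose in lung KO from 168.8 ± 2.38 to 254.6 ± 15.9 CPM (log2 0.58, adjusted p = 4.28e-11). *Fbxw7*, part of the ligase that marks MYC for degradation, fell in lung KO (log2 -0.41, adjusted p = 1.11e-06) and rose in spleen KO from 102.6 ± 1.66 to 164.8 ± 5.67 CPM (log2 0.66, adjusted p = 1.22e-12). *Mga*, another partner of MAX, fell in lung KO (log2 -0.46). *Max*, the partner of MYC, fell in spleen KO from 50.0 ± 2.36 to 26.2 ± 0.31 CPM (log2 -0.93, adjusted p = 1.87e-11). *Zbtb17*, through which MYC represses genes, fell there from 12.4 ± 0.61 to 4.05 ± 0.18 CPM (log2 -1.60, adjusted p = 3e-09). *Max* (log2 0.36) and *Zbtb17* (log2 0.87) were also called higher in lung KO, and *Mxd1* (log2 -0.17) lower in spleen KO. *Mga* was not called in spleen.

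Of 25 established MYC targets, 9 were called higher and 3 lower in lung KO, and 11 higher and 6 lower in spleen KO (medians 0.05 and 0.17). In lung KO, the pyrimidine synthesis gene *Cad* rose from 1.02 ± 0.03 to 7.66 ± 0.71 CPM (log2 2.92, adjusted p = 2.89e-09). The spermidine synthase gene *Srm* (log2 0.76) and the lactate dehydrogenase gene *Ldha* (log2 0.30, adjusted p = 4.33e-07) also rose there. In spleen KO, the ribosome assembly genes *Rrs1* (log2 -1.30, adjusted p = 2.2e-11) and *Bop1* (log2 -1.03, adjusted p = 5.09e-10) fell. The nucleophosmin gene *Npm1* rose there from 208.7 ± 1.52 to 289.3 ± 14.2 CPM. *Rrs1* (log2 0.525) and *Bop1* (log2 0.79) were also called higher in lung KO, and *Srm* (log2 -0.42) and *Ldha* (log2 -0.105) lower in spleen KO. *Cad* in spleen and *Npm1* in lung were not called.

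The kinase complex mTORC1 senses amino acids at the lysosome, and of 27 genes of this pathway tested, 9 were called higher and 9 lower in lung KO, and 12 higher and 8 lower in spleen KO (medians 0.08 and 0.10). *Lamtor5*, a subunit of the scaffold that holds the Rag GTPases, fell in lung KO from 172.4 ± 7.20 to 102.3 ± 7.49 CPM and rose in spleen KO from 117.8 ± 7.94 to 176.2 ± 1.78 CPM (log2 -0.75 and 0.61). *Lamtor2*, of the same scaffold, rose in spleen KO (log2 0.52, adjusted p = 7.52e-11). The folliculin gene *Flcn* rose in lung KO from 29.4 ± 0.22 to 59.8 ± 1.09 CPM, whereas that of its partner, *Fnip1*, fell (log2 -0.78, adjusted p = 3.43e-09). *Ddit4*, whose product inhibits mTORC1 under stress, fell in spleen KO from 89.5 ± 8.74 to 40.8 ± 4.23 CPM (log2 -1.18, adjusted p = 1.2e-15). In the other organ each of these genes was called the opposite way. *Ddit4* was higher (log2 0.36) and *Lamtor2* lower (log2 -0.36) in lung KO. *Flcn* was lower (log2 -0.61) and *Fnip1* higher (log2 0.28) in spleen KO.

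Of 15 proliferation genes, 12 were called higher and 1 lower in lung KO, and 6 higher and 5 lower in spleen KO (medians 1.02 and -0.02). The ribonucleotide reductase gene *Rrm2* rose in lung KO from 13.3 ± 1.64 to 45.5 ± 0.24 CPM (log2 1.81, adjusted p = 1.5e-15). The spindle gene *Tpx2* (1.58 ± 0.40 to 12.4 ± 0.07 CPM) and the mitotic kinase gene *Aurkb* (0.565 ± 0.432 to 7.15 ± 1.46 CPM) rose with it. *Bub1* and *Ccnb1* were at 0 in both lung *Wt* libraries and at 3.82 and 2.38 CPM in lung KO, and the median stayed at 1.02 with both set to the level of 3 reads. In spleen KO the replication gene *Mcm5* fell from 72.2 ± 1.35 to 35.5 ± 3.58 CPM and the checkpoint gene *Bub1* from 12.4 ± 0.19 to 5.56 ± 0.48 CPM. The cyclin gene *Ccna2* rose there (log2 0.52). *Mcm5* (log2 0.70) and *Ccna2* (log2 0.515) were also called higher in lung KO, and *Aurkb* lower in spleen KO (log2 -0.62). *Rrm2* and *Tpx2* were not called in spleen. Between organs, 14 of the 15 were called lower in lung than in spleen in *Wt*, and 13 in KO. Of all genes tested, 29.3% were lower in lung in *Wt* and 31.7% in KO.

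**Figure D3:**
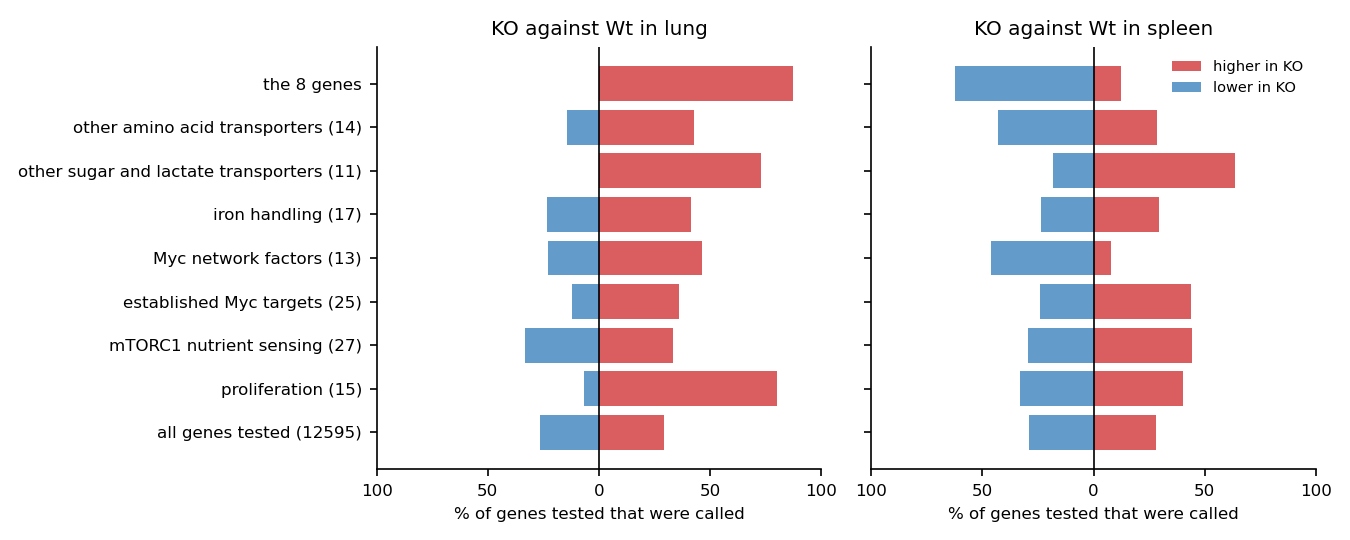
Share of the genes tested in each list that were called higher (right, red) or lower (left, blue) in KO, in lung and in spleen, with the number of genes tested in parentheses and all 12595 genes tested at the bottom. Genes of the list of sugar and lactate transporters, which includes *Bsg*, were called higher in 8 of 11 in lung and 7 of 11 in spleen. Proliferation genes were called higher in 12 of 15 in lung and 6 of 15 in spleen.

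For each gene, the 2 most similar patterns over the 8 libraries were sought among genes with a mean log2 CPM of at least 5, by Pearson's r of log2 CPM. The 8 points are 4 pairs of replicates of the same groups. A high r thus says only that the 4 group means of log2 CPM are linearly related. The sizes of the changes may differ between the genes. For *Slc1a5* these were *Spata13* (r = 0.999) and *Pdcd6ip* (r = 0.995), for *Slc2a1* *Acap1* (r = 0.998) and *Ranbp3* (r = 0.991), and for *Slc3a2* *Stk24* (r = 0.994) and *Arhgef2* (r = 0.993). For *Slc2a3* they were *Nhlrc2* and *Dock2* (both r = 0.991), and for *Slc7a5* *Ate1* (r = 0.983) and *Cers2* (r = 0.978). For *Tfrc* they were *Sla2* (r = 0.984) and *Chuk* (r = 0.976), for *Slc38a2* *Rab2b* (r = 0.981) and *Sar1a* (r = 0.978), and for *Myc* *Ppcdc* (r = 0.977) and *Acsl5* (r = 0.974). None of these genes was another of the 8.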

How the data were processed

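Reads of 50 bp from 8 libraries of sorted NK cells were aligned by the authors to mm10 with HISAT2 2.1.0 and counted on genes with HTSeq (0.11.1 in the submitters' processing notes), and the authors deposited raw read counts per gene symbol. HTSeq's categories of uncounted reads were left out of library sizes and tests, and 44.3 to 46.6% of the reads in each file lay on genes. The 8 genes and the lists were chosen with earlier results of these data known.

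Analyses used edgeR 4.0.16 and limma 3.58.1 in R 4.3.3. Genes were kept by filterByExpr over the 4 groups (12595 of 48321 symbols), and *Slc7a5* passed through the lung libraries. After TMM scaling, the 4 group means were fitted in a single model of the 8 libraries, and contrasts went through edgeR's quasi-likelihood test, adjusted after Benjamini and Hochberg across the whole table and called at 0.05. SE values were derived from the F statistic, SD values are those of 2 libraries, and intervals and levels of 3 reads cover counting error or the spread between these libraries only. From each list, the 3 called genes with the smallest p in lung and in spleen were named, apart from 1 gene that is not reported here. *Slc16a3*, *Ccnb1* and the genes of the light chain and ratio paragraphs were named after their values were seen.

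Positions and exon lengths came from GENCODE M21, in which 46394 symbols matched a gene name and 1927 did not, and 97.0% of the genes tested had a GC content. Alternatives were RLE scaling, library totals, no filter, DESeq2 1.42.0, only the 4 libraries compared, the replicate number as a block, a GC offset (spline with 5 degrees of freedom) with and without that block, an assumed biological coefficient of variation of 0.2 (likelihood ratio test), and leaving out each library. On counts simulated for the lung comparison with 200 genes changed by 1 log2 unit among 12091 tested, the quasi-likelihood test recovered 79.5%, with 3.05% of its calls false. DESeq2 recovered 65% with 0 false calls, and the assumed variation recovered 0%. In the simulated counts only these 200 genes differed between groups, and the spread was taken from these libraries. In the real lung comparison 55.6% of all genes were called, so the simulated rates need not hold there.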

Additional observations from a re-analysis of the deposited data

Results flagged for a closer look

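The KO effect differed between lung and spleen for 6 of the 8 genes by the test of the difference itself (edgeR, adjusted over 12595 genes). Of all genes tested, 61.6% were called in this test. In each of the 6 genes the effect was more positive in lung, as in 32.5% of all genes. The difference, lung minus spleen in log2 units, was 2.71 for *Slc1a5*, 1.29 for *Slc2a1*, 1.11 for *Slc2a3*, 1.04 for *Slc3a2* and 0.90 for *Myc*. It was 4.07 for *Slc7a5*, which passed the filter through its lung libraries, was counted with 2 to 26 reads in spleen, and did not pass the filter in a fit of the spleen libraries alone. At a biological coefficient of variation set to 0.2, the difference was called for *Slc7a5*, *Slc1a5* and *Slc2a1*, beside 2017 of all 12595 genes. Of these 2017 genes, 69.7% had a positive difference, as the called genes among the 8 did. The value of *Slc7a5* ran from 2.84 to 4.44 when each library was left out in turn, the lowest without the second spleen *Wt* library. Each group holds 2 libraries, and properties of the single preparations cannot be told apart from those of the group.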

How the results depend on the processing

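With DESeq2, 4507 genes in place of 7000 were called in lung and 4165 in place of 7195 in spleen. Between organs in *Wt*, 4790 genes in place of 7185 were called, and 3 of the 8 genes in place of 5. At a biological coefficient of variation set to 0.2, 1557 genes were called in lung, 1144 in spleen, 2017 for the difference, 2011 between organs in *Wt* and 2316 in KO. Of the 8 genes, 2 were then called in lung, 3 in spleen, 3 for the difference, 1 between organs in *Wt* (*Slc1a5*) and 6 in KO. Of all genes called between organs at this setting, 43.9% were higher in lung in *Wt* and 65.6% in KO. Leaving out each library in turn gave 4448 to 7493 genes called in spleen, the lowest without the second spleen KO library. Uncalled values that changed sign were the difference for *Slc38a2* (-0.002 with RLE, -0.009 with DESeq2, -0.059 to 0.049 over the libraries left out) and *Tfrc* in lung (-0.13 to 0.32 over the libraries left out). With the GC offset, and with that offset and the replicate block, *Slc3a2* between organs in *Wt* was 0.051 and 0.047 and *Slc38a2* between organs in KO was 0.055 and 0.059, and *Myc* between organs in KO was -0.032 with the offset alone. The cause of these changes was not tested. No called value changed sign. Of the values of single genes, 306 with a library left out kept their direction and their side of the threshold, 6 lost a call, 4 gained a call and 4 changed sign, and under the other settings these numbers were 306, 21, 17 and 7. In the fit of the 4 spleen libraries alone, *Slc7a5* did not pass the filter.

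The replicate numbers are not stated to pair libraries, and the deviations of equally numbered libraries correlated at 0.169 in spleen and -0.0139 in lung over 5103 genes. With replicate number as a block, 7012 genes were called in lung, 7298 in spleen, 7724 for the difference, 7235 between organs in *Wt* and 8085 in KO. Of the 8 genes, 7, 7, 6, 6 and 6 were called, with *Myc* in spleen (-0.19, adjusted p = 0.00962) and *Slc7a5* between organs in *Wt* (adjusted p = 0.0234) gained under the block.

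Reads were fewest for *Slc7a5* in spleen, where 2 to 26 were counted per library. *Tfrc* was counted with 9 to 119 reads per library, and its intervals for genotype span 0 in both organs. The part of depth in these values was not tested.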
